A study of Mus musculus with 294 samples.

Results

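Regulators of the smooth muscle programme, targets of the YAP pathway and the matrix gene Thbs1 were followed across single neural crest cells of the embryonic mouse heart. The 10 genes, Srf, Myocd, Mkl1, Mkl2, Mef2c, Klf4, Ctgf, Cyr61, Ankrd1 and Thbs1, were chosen by name, and all 10 were rows of the raw count table of 15124 genes. Each was set against Acta2, smooth muscle actin, and Tagln, the actin-binding protein transgelin, which mark cells of the smooth muscle programme. The mice carried Wnt1-Cre and the R26-EYFP reporter, so cells descended from Wnt1-expressing neural crest make the yellow protein EYFP. EYFP-positive cells of the outflow tract were sorted from embryos between embryonic day 11.5 and day 17.5, the other days being 14.5 and 12.5, and captured one by one. All cells belonged to 1 group by genotype, tissue and sort, and the labels used here give no embryonic day, animal or chip for a cell, so stages were not compared. Cells are not replicates, and no p-value was computed.

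Correlations were taken only within name series, that is, among cells whose names share the first digit. The 7 name series held 58, 48, 38, 38, 34, 34 and 44 cells, and the labels do not say what the digit stands for. Total counts per cell ranged from 34046 to 3033857 reads, with no molecular identifiers, so every interval below covers counting error only. Series 1 stood apart, where 2051 genes (13.6% of the table) had a read in every cell, against at most 1.81% in any other series. Some results are therefore also given without it. All cell names were different, and no pair of cells had identical counts. The sorted cells carried mesenchymal markers (Postn, Col1a1, Col3a1, Pdgfra, Sox9, Twist1, Lum and Dcn), whose summed level was 820.1 CPM (a gene's reads per 1000000 reads of the cell) or more in every cell. The summed level of 11 cardiomyocyte markers had a median of 4.33 CPM and reached 45999 CPM in a cell of series 7. The endothelial sum (4 genes) had a median of 1.003 CPM, and the epicardial (3 genes), blood (1 gene) and glial (6 genes) sums had medians of 0. Single cells were higher: the glial sum reached 4564 CPM in series 2 and the endothelial sum 3361.5 CPM in series 5. The epicardial sum reached 497.1 CPM and the blood sum 278.5 CPM.

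SRF is a transcription factor that binds CArG boxes in the promoters of contractile and cytoskeletal genes. It works with partner proteins: myocardin (Myocd), which drives the smooth muscle and cardiac programmes, and the related coactivators MRTF-A (Mkl1) and MRTF-B (Mkl2), which enter the nucleus when free actin monomers are used up. KLF4 opposes this programme in smooth muscle cells, and MEF2C is a partner factor in muscle and in neural crest. YAP and TAZ (Wwtr1) are coactivators that act through TEAD factors when the Hippo kinases are inactive, and Ctgf, Cyr61 and Ankrd1 are their standard readout genes. Several of these targets are also known to respond to SRF and MRTFs. CTGF and CYR61 are secreted matricellular proteins of the CCN family, ANKRD1 is a nuclear and sarcomeric ankyrin repeat protein, and thrombospondin 1 (Thbs1) is a secreted matrix protein that can activate TGF-beta.

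The promoters show where the DNA words of the 2 pathways stand in genes the results turn on. The TEAD word was GGAATG on either strand (CATTCC on the other), and the CArG box was searched on both strands. Of 32851 windows of 250 bases upstream of a RefSeq start on GRCm38.p6, 12.6% held a TEAD word and 1.47% a CArG box. Windows were on hand for 7 of the 10 genes and for Acta2. Srf (chr17:46556163-46556412, minus strand) had CArG boxes starting 82 and 62 bases before its start. Ankrd1 (chr19:36119845-36120094, minus strand) had a TEAD word 210 bases before its start and a second nearer to it, Cyr61 (chr3:145649986-145650235, minus strand) had 1, and Acta2 (chr19:34255374-34255623, minus strand) had 1 and no exact CArG box. They read 5′ to 3′ along each gene's strand, with capitals marking the matched words, none of which overlap.
Srf: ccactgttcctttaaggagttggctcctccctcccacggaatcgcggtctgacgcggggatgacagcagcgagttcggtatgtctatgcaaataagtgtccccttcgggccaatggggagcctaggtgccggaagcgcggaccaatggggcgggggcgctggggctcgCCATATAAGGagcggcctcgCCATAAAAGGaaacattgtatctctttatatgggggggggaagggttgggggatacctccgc
Cyr61: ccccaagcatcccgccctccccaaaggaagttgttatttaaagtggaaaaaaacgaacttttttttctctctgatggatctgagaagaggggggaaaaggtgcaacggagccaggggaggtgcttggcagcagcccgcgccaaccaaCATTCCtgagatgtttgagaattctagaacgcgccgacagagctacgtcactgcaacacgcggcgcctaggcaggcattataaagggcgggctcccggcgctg
Ankrd1: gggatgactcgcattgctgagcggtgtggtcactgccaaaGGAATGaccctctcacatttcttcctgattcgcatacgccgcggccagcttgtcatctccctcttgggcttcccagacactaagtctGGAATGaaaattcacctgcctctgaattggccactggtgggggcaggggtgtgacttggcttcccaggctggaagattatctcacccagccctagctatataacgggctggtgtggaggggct
Acta2: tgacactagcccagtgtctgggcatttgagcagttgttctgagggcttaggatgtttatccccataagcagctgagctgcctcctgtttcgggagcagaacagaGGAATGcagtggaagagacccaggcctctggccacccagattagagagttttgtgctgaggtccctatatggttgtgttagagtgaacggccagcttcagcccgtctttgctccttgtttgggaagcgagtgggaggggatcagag
The 2 CArG boxes of Srf itself, CCATATAAGG and CCATAAAAGG, lie close together near its start. Of the other windows, 1 of 3 for Mef2c had a TEAD word at 75 bases and 1 of 3 for Mkl2 had one at 81 bases, while neither motif was matched for Mkl1 (2 windows) or Klf4 (1 window). The Acta2 window also holds ccctatatgg and ccttgtttgg, each with 1 C or G among the A and T bases between CC and GG. The exact search did not count such inexact boxes. A match is a description of these letters and not of binding.

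The YAP targets and Thbs1 were abundant in most cells, apart from Ankrd1, and the regulators were found in a minority. A gene was called detected in a cell at 10 CPM or more. Thbs1 was detected in 82.3% of cells (exact Clopper-Pearson 95% interval 77.5% to 86.5%), Cyr61 in 70.4% (64.8% to 75.6%) and Ctgf in 66.7% (60.96% to 72.03%). These 3 of 10 genes were detected in at least 50% of cells, and 24.6% of the 8853 genes tested were. A gene was tested if it was detected in at least 10% of cells, and all 10 genes and both markers were. Acta2 was detected in 61.9% and Tagln in 77.6%.

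Ctgf ranged from 0 to 6087 CPM with a median of 150.7, Cyr61 from 0 to 3848 with a median of 187.8, and Thbs1 from 0 to 13336 with a median of 480.5. Without series 1 the medians were 84.2 CPM for Ctgf, 94.3 CPM for Cyr61 and 400.9 CPM for Thbs1. Ankrd1 was the exception among the YAP targets. It was detected in 39 cells (13.3%, 9.61% to 17.7%), and 20 of them had 100 CPM or more, up to 1636 CPM. So Ankrd1 was not detected in most cells and was high in a few.

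Mef2c was the most widely detected regulator, in 46.6% of cells (40.8% to 52.5%), with a highest level of 1269 CPM, and in 39.8% without series 1. Klf4 followed with 36.7% (31.2% to 42.5%) and a highest level of 1049 CPM. Mkl2 was detected in 91 cells (30.95%, 25.7% to 36.6%) and Srf in 74 (25.2%, 20.3% to 30.5%). Mkl1 was detected in 47 cells (15.99%, 11.99% to 20.7%) and Myocd, the most smooth muscle-restricted of the regulators, in 32 (10.9%, 7.56% to 15.0%). The highest levels of Srf, Mkl1, Mkl2 and Myocd were 794.2, 791.2, 1586 and 444.3 CPM, and 10.9% or fewer of all cells reached 100 CPM for each. At this depth a gene not read in a cell may still be expressed there.

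**Figure D1:**
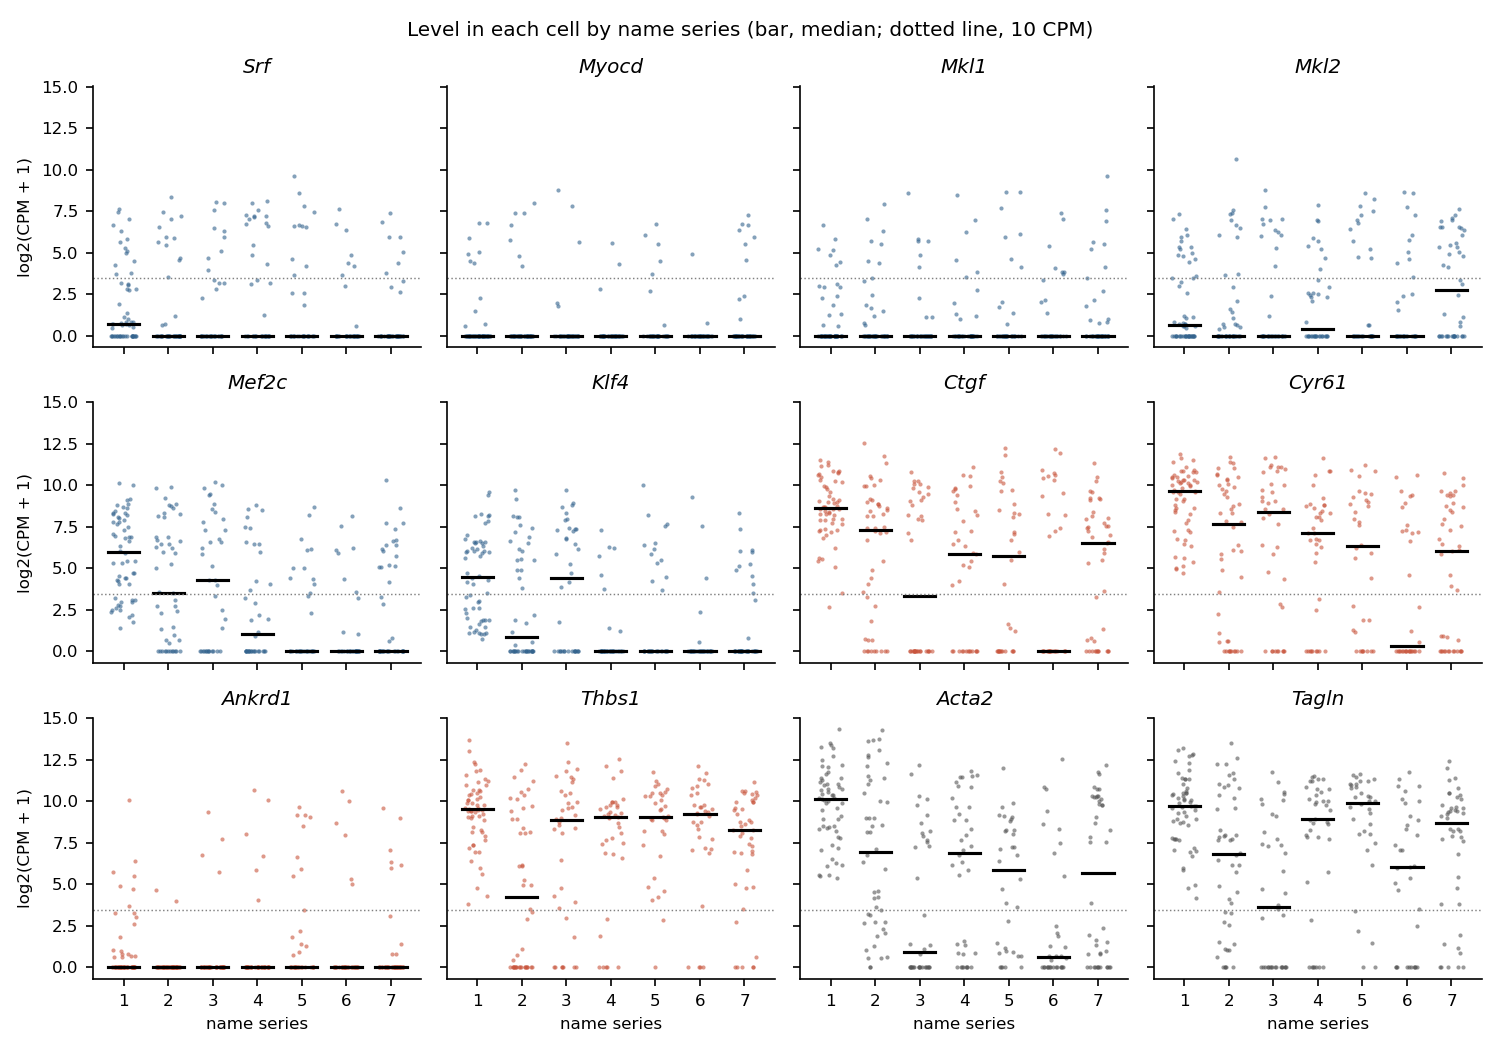
Level of each of the 10 genes and of Acta2 and Tagln in every cell, as log2(CPM + 1) on the vertical axis, by name series on the horizontal axis. Each point is 1 cell, bars are medians and the dotted line is 10 CPM, and most cells lie at 0 for Srf, Myocd, Mkl1, Mkl2 and Ankrd1.

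Levels of different genes were compared per length, as CPM per kilobase of exon (RPKM) averaged over all cells. Cyr61 led at 271.9 ± 381.95 RPKM (SD over cells), before Ctgf at 168.9 ± 287.7 and Thbs1 at 150.7 ± 246.2. Klf4 (18.8 ± 45.7), Ankrd1 (16.02 ± 68.2), Srf (9.41 ± 25.5) and Mef2c (6.53 ± 13.4) came next on the RPKM scale. Mkl2 (3.88 ± 12.5), Mkl1 (2.80 ± 11.4) and Myocd (1.49 ± 6.198) were lowest. The SD over cells exceeded the mean for each gene. It describes the spread between cells and not the uncertainty of a mean, and differences between neighbours in this order were not tested. By median RPKM the order was led by Cyr61 (93.02), Thbs1 (79.1) and Ctgf (52.7), and all other medians but that of Mef2c (0.43) were 0. Without series 1 the median RPKM was 46.7 for Cyr61, 66.01 for Thbs1, 29.4 for Ctgf and 0.065 for Mef2c, so Thbs1 then came before Cyr61. Acta2 averaged 520.4 and Tagln 489.5 RPKM.

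The positions come from GENCODE M21 on GRCm38, which names Mkl1 Mrtfa, Mkl2 Mrtfb, Ctgf Ccn2 and Cyr61 Ccn1. Ctgf (ENSMUSG00000019997.11, chromosome 10, 24595442 to 24598683) shares 23.2% of its exon bases with Gm15270 on the opposite strand. Tagln (ENSMUSG00000032085.5, chromosome 9, 45929619 to 45936058) shares 67.9% with Pcsk7 and Gm48529 on the opposite strand. Whether counting used strand was not given in the sources used here, so the counts of Tagln and Ctgf may include reads of these neighbours. Thbs1 (ENSMUSG00000040152.8, chromosome 2, 118111876 to 118127133), Mkl1 (chromosome 15, 81012281 to 81190757) and Mkl2 (chromosome 16, 13256481 to 13417529) share 3.42%, 0.16% and 1.802%. Srf (ENSMUSG00000015605.6, chromosome 17, 46548329 to 46556175), Myocd (ENSMUSG00000020542.18, chromosome 11, 65176561 to 65269989), Mef2c (chromosome 13, 83504034 to 83667080), Klf4 (chromosome 4, 55527143 to 55532466), Cyr61 (ENSMUSG00000028195.4, chromosome 3, 145646976 to 145649981), Ankrd1 (chromosome 19, 36111961 to 36120099) and Acta2 (chromosome 19, 34241090 to 34255590) share none.

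Most cells carried several of the targets at once. Of Ctgf, Cyr61, Ankrd1 and Thbs1, 24 cells had all 4, 44.9% of cells had 3, 65 cells had 2, 62 had 1 and 11 had none at 10 CPM. For every pair of these 4 genes, the product of their shares within series lay inside the interval of the share with both. Ctgf and Cyr61 were together in 54.8% of cells (48.9% to 60.5%), against a product of 49.7%. Of the 6 regulators, no cell had all 6, 6 cells had 5, 13 had 4, 44 had 3, 92 had 2, 91 had 1 and 48 had none.

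At 10 CPM, the detection of Srf, Myocd, Mkl1, Mkl2 and Ankrd1 could not be separated across name series. For each of these 5 genes, the exact intervals of all 21 pairs of series overlapped. The share of all tested genes with such overlap was not computed, so this count has no background. Srf ran from 15.9% of cells in series 7 to 36.8% in series 4, and Myocd from 2.94% in series 6 to 15.9% in series 7. Mkl1 ran from 12.1% in series 1 to 20.6% in series 5 and 6, Mkl2 from 22.9% in series 2 to 45.5% in series 7, and Ankrd1 from 4.17% in series 2 to 23.5% in series 5.

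The other 5 genes differed between name series at 10 CPM, mostly by series 1. In series 1, the interval lay above that of series 2 to 7 together for Mef2c, Klf4, Ctgf, Cyr61 and Thbs1, and so it did for 29.6% of all genes tested. In series 1 every cell had at least a read of each of these 5 genes. At 100 CPM the interval was still above for Mef2c, Ctgf, Cyr61 and Thbs1, compared with 8% of all genes, but not for Klf4. None of the 10 genes lay below in series 1 (0.791% of all genes did).

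Ctgf was detected in 98.3% of series 1 cells and 58.9% of the others, and its neighbour in the order, series 2 (68.8%), had a separate interval. Ctgf then ran through series 4, 7, 5 and 3 to series 6 at 44.1%, with overlapping intervals from each series to the next. Cyr61 was detected in 100% of series 1 cells, 71.1% of series 3 and of series 4 cells, and 41.2% of series 6 cells. Its median level was 800.6 CPM in series 1, 341 CPM in series 3 and 0.25 CPM in series 6. The lowest Ctgf and Cyr61 shares were thus both in series 6, where the Acta2 share was also lowest at 26.5%. The shares of Mef2c, Klf4 and Myocd were lowest there too. Series 6 had the fewest genes with a read per cell (median 3123, against 3300.5 to 7718 in the other series). The part of this in the low shares was not tested.

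Thbs1 had another order. It was lowest in series 2 at 52.1% (37.2% to 66.7%) and was detected in 76.3% to 94.1% of the cells of series 3 to 7. In series 2 the Thbs1 median was 19.96 CPM, compared with 303.6 to 724.7 CPM in the other series. Without series 2, Thbs1 was detected in 88.2% of cells, above the interval for all cells. So Thbs1 was low in series 2, where Ctgf and Cyr61 were each detected in 68.8% of cells.

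Mef2c was detected in 74.1% of series 1 cells, 55.3% of series 3, 52.1% of series 2 and 20.6% to 38.6% of the others. Klf4 was detected in 58.6% of series 1, 55.3% of series 3, 41.7% of series 2 and 8.82% to 38.2% of the others. Neighbours in both orders had overlapping intervals. Genes known to be induced by cell dissociation were also high in series 1 and 3: the summed level of 12 such genes had a median of 7797 CPM in series 1, 6825 CPM in series 3, 2280 CPM in series 2 and 786.4 to 1120 CPM in the others. Their part in the Klf4 and Cyr61 levels was not tested.

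**Figure D2:**
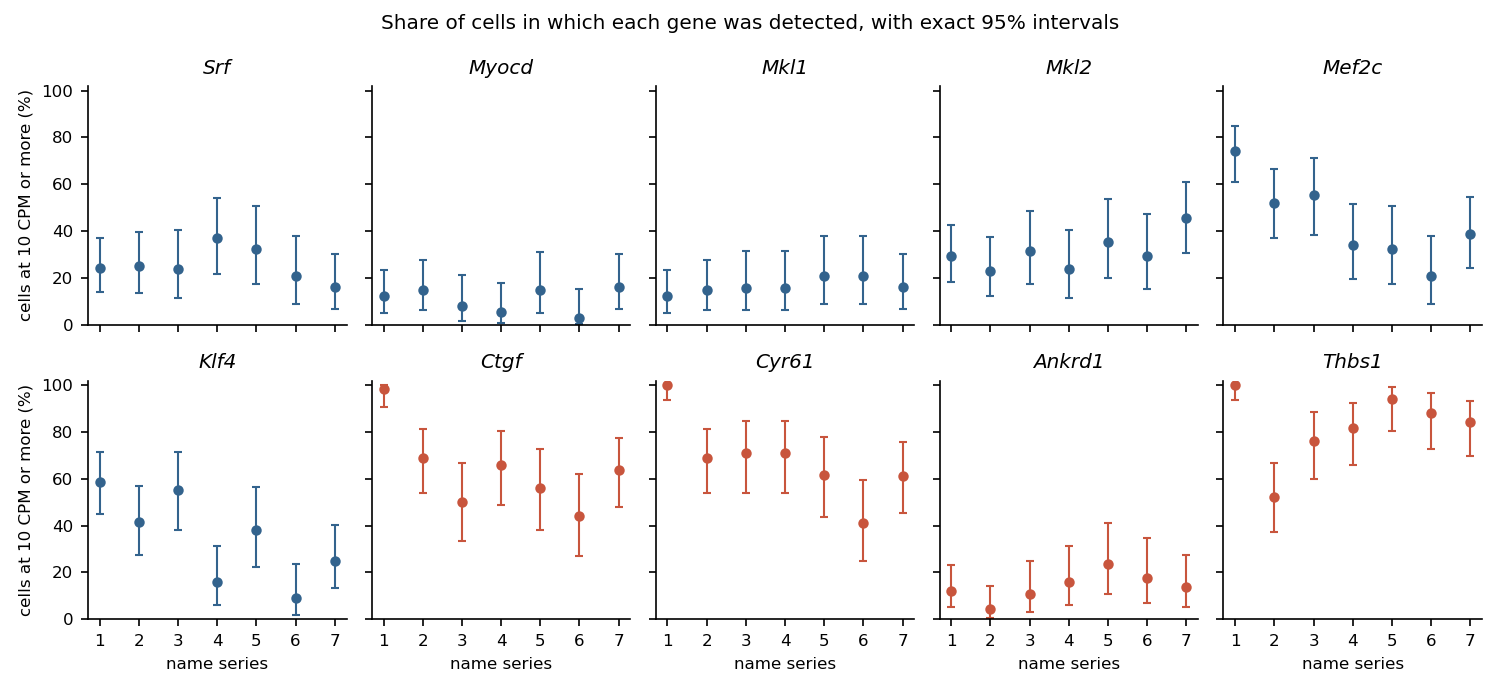
Percentage of cells of each name series in which each of the 10 genes reached 10 CPM, with exact 95% intervals as bars. The intervals of Srf, Myocd, Mkl1, Mkl2 and Ankrd1 overlap throughout, while series 1 is high for Mef2c, Klf4, Ctgf, Cyr61 and Thbs1, and series 2 is low for Thbs1.

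Within name series, Ctgf had the highest median correlation with Acta2 of the 10 genes, and Klf4 the lowest with Tagln. The measure was Spearman's correlation (rho) across the cells of 1 series, summarised by the median over series. A series counted for a pair if both genes had a read in at least 5 of its cells. The cells of a series share depth and unknown technical factors, so rho is a description without a p. For reference, Acta2 and Tagln had a median rho of 0.54 with each other (0.38 to 0.79 in the 7 series).

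Of the 8 genes with values in 6 or 7 series, 2, Ctgf and Mef2c, had a positive rho with Acta2 in every series, and 4.82% of the 7610 genes with as many series did. With Tagln this held for 1 of 8, Ctgf, against 2.73% of genes. Given total count, given genes detected or after thinning to 200000 reads, neither Ctgf nor Mef2c was positive with Acta2 in every series, and without series 5 the count with Tagln was 4. Myocd and Ankrd1 gave a value in 5 series each. Both were positive with Acta2 in all 5 (10.2% of 657 genes with 5 series were), and Ankrd1 but not Myocd was so with Tagln (5.94%). The median over the 8 genes was 0.11 with Acta2 and 0.05 with Tagln, compared with 0.04 and 0.01 over the 7610 genes with as many series.

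Ctgf had rho with Acta2 of 0.08, 0.39, 0.42, 0.43, 0.0033, 0.19 and 0.37 in series 1 to 7 (median 0.37). With Tagln its rho was 0.30, 0.45, 0.59, 0.25, 0.09, 0.58 and 0.26 (median 0.30). The medians were above those of 99.8% and 99.6% of tested genes. All 14 values were above 0, but those of series 5 were close to it. Given the number of genes detected per cell, the median with Acta2 was 0.17, while the median with Tagln stayed between 0.30 and 0.41 under every alternative other than leaving out a series.

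Cyr61 had rho with Acta2 of 0.28, 0.40, 0.0027, 0.06, -0.13, 0.36 and 0.39 (median 0.28) and with Tagln of 0.34, 0.37, 0.09, 0.20, -0.09, 0.44 and 0.24 (median 0.24). It was below 0 in series 5 with both markers, so it did not pass the rule of one sign in all series. Without series 2, 6 or 7, its median with Acta2 was 0.17, and without series 1 it was 0.21.

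Ankrd1 had rho with Acta2 of 0.04 in series 1, 0.44 in series 4, 0.26 in series 5, 0.56 in series 6 and 0.07 in series 7. With Tagln the values were 0.11, 0.42, 0.26, 0.48 and 0.02 in the same series. In the cell with the most Ankrd1 (1636 CPM, series 4), Acta2 stood at 1848 and Tagln at 1857 CPM, and in the second (1586 CPM, series 6) at 1701 and 1953 CPM. One cell of series 7 with 752.9 CPM of Ankrd1 had no read of either marker. With at least 10 cells with a read required, 3 series were left and the medians were 0.07 and 0.11.

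Thbs1 had medians of 0.11 with Acta2 (-0.09 to 0.24) and 0.13 with Tagln (-0.0012 to 0.28). It was negative in series 1 and 6 with Acta2 and in series 5 with Tagln. Thbs1 was thus nearer to the middle of all genes than Ctgf was, above 77.7% and 90.4% of them.

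Myocd had rho with Acta2 of 0.31, 0.35, 0.20, 0.42 and 0.23 in series 1, 2, 3, 5 and 7 (median 0.31). With Tagln the values were 0.37, 0.37, 0.18, 0.32 and -0.12 (median 0.32). Myocd was thus the regulator nearest to both markers by median, from 45 cells with a read. Of its 32 cells at 10 CPM, 25 had Acta2, 27 had Tagln, 22 had Cnn1 (calponin) and 9 had Myh11 (smooth muscle myosin heavy chain) at 10 CPM. With Myh11 the share of all cells was 3.06% (1.41% to 5.73%) against 1.47% from the product of the shares within series, inside the interval, and without series 1 it was 3 of 25 Myocd cells. The cell with the most Myocd (444.3 CPM, series 3) had no read of Acta2 or Tagln, and the second (256.4 CPM, series 2) had 5.70 and 1.04 CPM of them. In the fifth (165.3 CPM, series 2), Acta2 reached 19921 CPM and Tagln 6273 CPM. High Myocd therefore occurred both with and without the markers. With at least 10 cells required, 2 series were left and the median with Tagln was 0.12.

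Srf had medians of 0.11 with Acta2 (-0.13 to 0.15) and 0.07 with Tagln (-0.26 to 0.39), and was negative in series 5 with both. Mkl1 had medians of 0.12 (-0.11 to 0.20) and 0.02 (-0.13 to 0.21). Mkl2 had medians of 0.0031 (-0.22 to 0.29) and -0.04 (-0.34 to 0.28), and without series 1 both were above 0, at 0.02 each. The sign of these 3 genes depended on the series, and their medians lay within the range of the middle 90% of tested genes.

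Mef2c had rho with Acta2 of 0.03, 0.02, 0.30, 0.20, 0.08, 0.06 and 0.25 (median 0.08), positive in all 7 but small in most, and the median was 0.14 without series 1. With Tagln its median was 0.02 (-0.14 to 0.46). In series 3 it was highest with both.

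Klf4 had rho with Tagln of -0.11, -0.15, -0.20, 0.24, -0.39, -0.02 and 0.10 (median -0.11), below 0 in 5 of 7 series. Its median lay above that of 7.5% of tested genes. With Acta2 the median was 0.07 (-0.34 to 0.25), and it was between -0.05 and -0.04 without series 1, 2, 4 or 7. The median of Klf4 with Tagln stayed below 0 in every alternative run, from -0.18 to -0.07. Neither marker gave Klf4 one sign in all series.

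**Figure D3:**
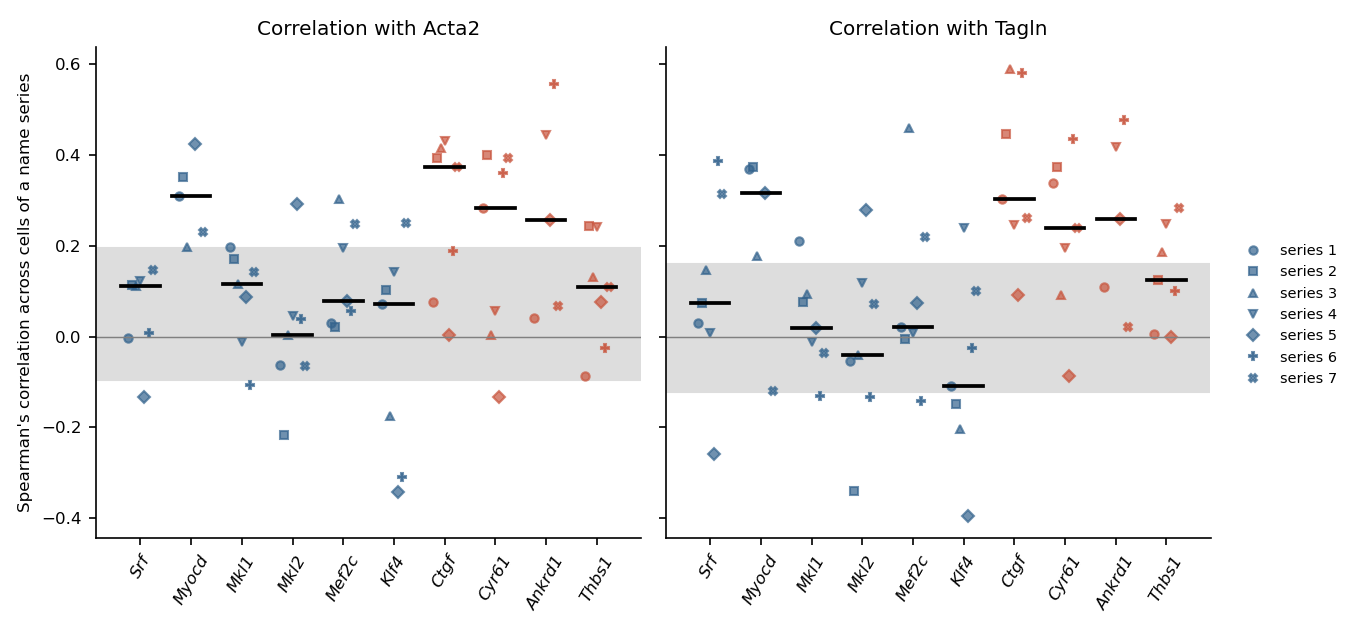
Spearman's correlation of each gene with Acta2 (left) and with Tagln (right) on the vertical axis, 1 symbol per name series, bars for medians. The grey band holds the medians of the middle 90% of tested genes with 6 or 7 series, and the medians of Myocd, Ctgf, Cyr61 and Ankrd1 lie above it in both panels. Those of Myocd and Ankrd1 are over 5 series, so the band is not drawn from genes with as many series as these 2.

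**Figure D4:**
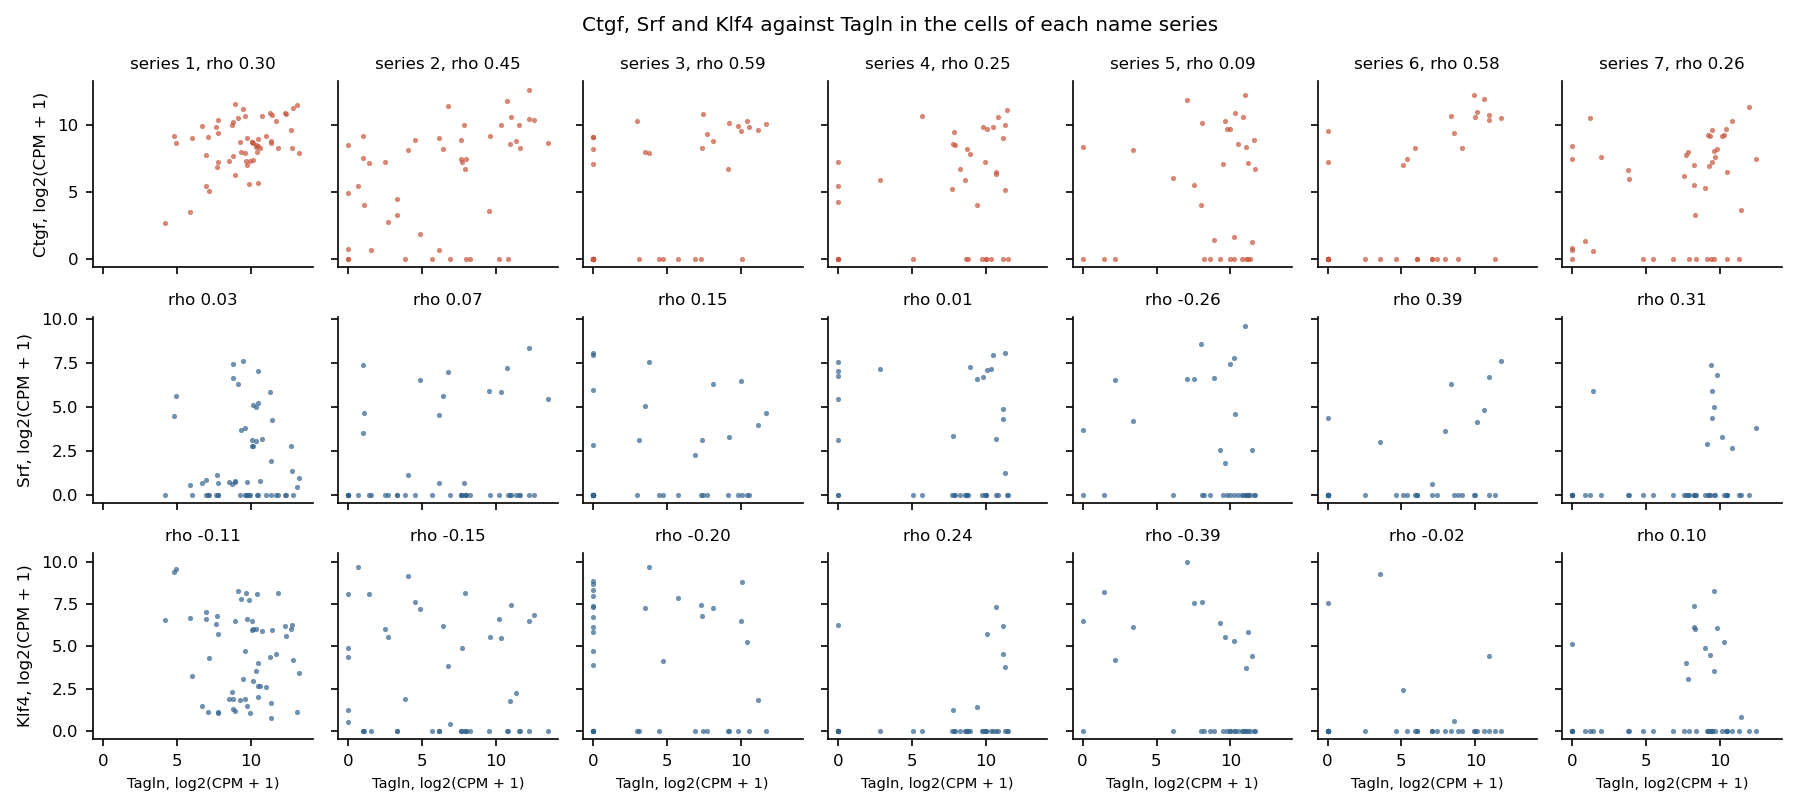
Ctgf, Srf and Klf4 against Tagln in the cells of each name series, both as log2(CPM + 1), 1 point per cell, with rho above each panel. Ctgf has positive values throughout, from 0.09 in series 5 to 0.59 in series 3, while Srf and Klf4 change sign between series.

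Presence and absence alone gave little resolution for any gene. For each gene, the share of cells with it and a marker at 10 CPM was set against the sum over series of the products of their shares. All 20 combinations of the 10 genes with Acta2 or Tagln had the product inside the exact 95% interval of the observed share, and the product lay below the interval for 0.0904% of genes with Acta2 and 0.0452% with Tagln, so almost no gene of the table was called by this measure and the count of 0 is at that background. The observed share was above the product for 8 of 10 genes with Acta2 (71.1% of all genes) and 8 of 10 with Tagln (65%). Cells with both Ctgf and Acta2 made up 49.3% (43.5% to 55.2%) and the product was 45.1%, and for Ctgf and Tagln the values were 57.8% and 53.8%. Mkl1 and Mkl2 lay below the product with Acta2, and Klf4 and Mkl2 with Tagln, by 1.32 percentage points or less.

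All 34 cells with Myh11 at 10 CPM also had Ctgf, 11.6% of cells (8.14% to 15.8%) against a product of 9.91%, which was inside the interval. Without series 1 it was 13 of 13 cells, where Ctgf was detected in 58.9% of all cells. No larger overlap of Myh11 with Ctgf was possible in either set, so this rule could not have called the pair above the product. Mef2c was present in 30 of the 34 Myh11 cells, Cyr61 in 30, Thbs1 in 26 and Klf4 in 22. Most of these cells were of series 1. Without it, Mef2c was present in 10 of the 13 Myh11 cells, Cyr61 in 9, Thbs1 in 5 and Klf4 in 4, and for Thbs1 and Klf4 the share was then below the product, which stayed inside the interval. Ankrd1 and Cnn1 were detected together in 28 cells (9.52%, 6.42% to 13.5%) against a product of 6.03%, below the interval, but without series 1 the product was inside it.

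Among themselves, the targets formed the closest pairs, with Ctgf in most of them. Of 28 pairs with 6 or 7 series, 4 were positive in every series, against shares of all genes of 3.48% with Srf, 4.27% with Mkl1, 4.52% with Mkl2, 2.46% with Mef2c, 1.13% with Klf4, 3.43% with Ctgf, 3.69% with Cyr61 and 2.19% with Thbs1. The 4 pairs were Ctgf with Cyr61 (median 0.32, 0.14 to 0.68), Ctgf with Thbs1 (0.25, 0.08 to 0.42), Ctgf with Srf (0.24, 0.08 to 0.36) and Mkl1 with Mkl2 (0.25, 0.09 to 0.32). Ankrd1 had medians of 0.29 with Ctgf and 0.29 with Thbs1, positive in all 5 series (5.17% of genes with 5 series were so with Ankrd1). Of the 28 pairs, 23 had a median above 0. The median over 7610 genes was also above 0 with each gene of these pairs, from 0.01 with Klf4 to 0.05 with Mkl1. The share of all genes above 0 is not given, so the count of 23 has no background.

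Ctgf and Cyr61 were closest in series 6, at 0.68, and farthest in series 1, at 0.14. Srf, which encodes the factor itself, was nearer to Ctgf than to Acta2 by median. The Mkl1 and Mkl2 pair was weaker under other settings, with a median of 0.07 after thinning to 200000 reads and 0.06 as Pearson's r of log2(CPM + 10). Both genes were positively related to the number of genes detected in a cell (median rho 0.30 for Mkl1 and 0.27 for Mkl2), as were Srf (0.24), Ctgf (0.23), Mef2c (0.19), Myocd (0.23), Ankrd1 (0.15), Cyr61 (0.14) and Thbs1 (0.10), but not Klf4 (-0.02). The pair Srf and Ctgf had a median of 0.12 given total count. Klf4 had medians near 0 with every regulator, and the lowest of all 45 pairs was Mef2c with Thbs1 at -0.09.

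**Figure D5:**
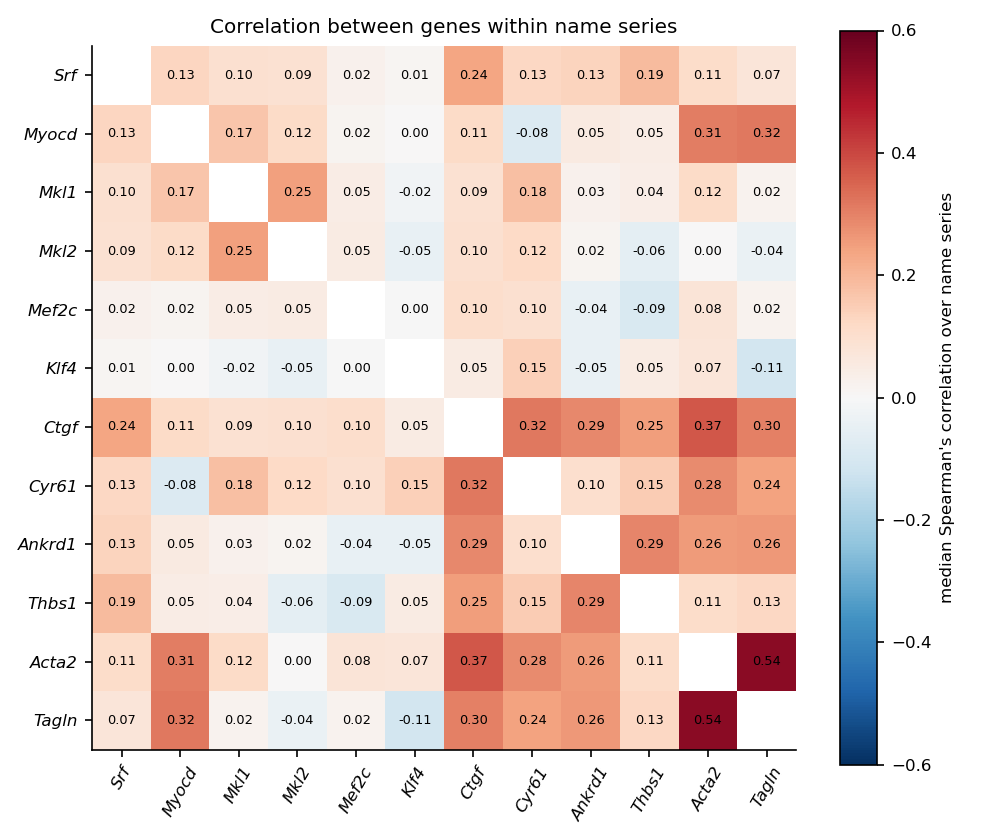
Median over name series of Spearman's correlation for each pair of the 10 genes, Acta2 and Tagln, printed in each square and coloured from blue (negative) to red (positive). The rows of Ctgf, Cyr61 and Ankrd1 are red towards Acta2 and Tagln, and the rows of Mef2c and Klf4 are pale.

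The genes most like each of the 8 genes with enough series were taken as the 3 with the highest median rho and one sign in every series. For Ctgf these were Actn1, an actin cross-linker (0.40), Myl9, a myosin light chain (0.37), and Acta2 (0.37), all parts of the contractile apparatus. For Cyr61 they were Hes1, a Notch target (0.35), Ctgf (0.32) and the immediate early gene Fos (0.31). For Thbs1 they were Enc1 (0.34), Car3 (0.32) and Cd44, a hyaluronan receptor (0.29). For Klf4 they were the forkhead factor Foxc1 (0.24), Trak1 (0.23) and Asxl1 (0.23). Mef2c had Lnp (0.32), Mfge8 (0.29) and Emb (0.27).

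Srf was nearest to Vps33a (0.30), Ino80 (0.30) and Eif2ak2 (0.29), Mkl1 to Specc1 (0.31), Ebag9 (0.30) and Ankra2 (0.27), and Mkl2 to Dnajc3 (0.33), Dhx16 (0.32) and Srcap (0.31). None of these 9 genes is a contractile gene. They were detected in 17.3% to 60.9% of cells, and the 3 genes nearest to Ctgf in 61.9% to 74.1%. The ranking was not repeated given total count or genes detected, and the part of detection in it was not tested. Myocd and Ankrd1 had too few series for this ranking.

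The cytoskeletal SRF targets had higher medians with both markers than Srf, Mkl1 and Mkl2, a difference that was not tested, while the immediate early SRF targets had lower medians than Srf with both. Of 18 cytoskeletal genes known as SRF and MRTF targets, 9 were positive with Acta2 in every series (background 4.82%) and 10 with Tagln (2.73%), with median rho over the list of 0.26 and 0.27. Detection of the 18 ran from 31.6% of cells for Itga5 to 100% for Actb and Actg1. Srf was detected in 25.2%, Mkl1 in 15.99% and Mkl2 in 30.95%, and the part of detection in the difference was not tested. Actn1 (0.40 with Acta2, 0.42 with Tagln), Myh9, a nonmuscle myosin (0.33, 0.46), Vcl, vinculin (0.29, 0.38), and Cnn2 (0.26, 0.45) were among them. With Ctgf, 5 of the 18 were positive in every series (3.43% of all genes), with a list median of 0.17, and with Cyr61 also 5 (3.69%), at 0.13. With Srf itself it was 1 of 18 (3.48%), Cnn2, and with Mkl1 1 of 18 (4.27%). With Klf4 none was positive in every series (1.13%) and 1 was negative, Csrp1 (-0.19, 0.867% of all genes), with 2 of 18 medians above 0. The list median with Klf4 was -0.05, compared with 0.01 over 7610 genes, and the share of all genes with a median above 0 is not given.

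Of 12 immediate early genes, which SRF controls with another class of partners, 1 was positive in every series with each marker, with list medians of 0.07 for both. With Cyr61 4 were positive in every series (background 3.69%), Fos (0.31), Fosb (0.24), Junb (0.21) and Dusp1 (0.14), and with Ctgf 3 (3.43%). The list median was 0.22 with Cyr61 and 0.08 with Ctgf. Cyr61 had a median rho of 0.31 with the summed dissociation genes, positive in all 7 series (0.15 to 0.54), and these lists share genes. Ctgf had 0.04 with the same sum, and Klf4 0.22, positive in 4 of 7 series. With the summed contractile genes, Ctgf had 0.41 (0.01 to 0.57, positive in all 7), Cyr61 0.26, Ankrd1 0.38 and Myocd 0.36 (both positive in all 5). That sum includes Acta2 and Tagln, so these values partly repeat those with the markers. Of 8 contractile genes with enough series, apart from the markers, 2 were positive with Ctgf in every series (list median 0.16) and 3 with Cyr61 (0.17). A difference between Ctgf and Cyr61 was not tested.

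Thbs1 was nearer to matrix-rich mesenchyme markers than to contractile genes by median, a difference that was not tested. Its median rho was 0.26 with the summed mesenchyme markers (positive in 6 of 7 series), 0.08 with the summed contractile genes and -0.24 with the summed dissociation genes (positive in 3 of 7). Myocd had -0.25 with the mesenchyme sum, below 0 in 4 of 5 series. The Thbs1 values with the dissociation sum ran from -0.34 to 0.27, so that sign depended on the series. Myocd and Ankrd1 are also known as cardiac muscle genes, and with the summed cardiomyocyte markers their medians were 0.08 (0.04 to 0.35, positive in all 5) and 0.02 (-0.01 to 0.52). Mkl1 and Actc1, cardiac actin, were both detected in 2 cells (0.68%, 0.08% to 2.44%) against a product of 2.70%, above the interval. For every other gene of the 10 the product with Actc1 was inside the interval. It was also inside for Mkl1 with the cardiac gene Tnnt2 (7 cells, 2.38% against 2.84%). No share over all genes is given for Actc1, so the Mkl1 value has no background.

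Of 12 other YAP and TEAD targets with enough series, 2 were positive with Acta2 in every series, Amotl2 (0.18) and Crim1 (0.16), and none with Tagln (backgrounds 4.82% and 2.73%). With Ctgf 1 of the 12 was so (background 3.43%), Ptpn14 (0.08), while Amotl2 (0.39) and Tgfb2 (0.31) had higher medians but not one sign. Of 19 Hippo pathway genes, 2 were positive in every series with Acta2, Amotl2, which is on both lists, and Vgll3 (0.11), and 1 was so with Ctgf, Wwtr1 (0.37), which encodes TAZ. With Tagln 1 of the 19 was so. Each of these counts is of 2 genes or fewer, so they say little about either list. Yap1 was detected in 44.2% of cells, with a median rho of 0.06 with Ctgf, -0.02 with Acta2 and -0.05 with Tagln. Wwtr1 was detected in 59.5%, with -0.01 and 0.14 for the markers, and Tead1 in 67.01%, with 0.28 for Ctgf. None of the 12 SRF cofactors and related factors with enough series was positive in every series with either marker.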

How the data were processed

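RNA of single EYFP-positive cells was captured on Fluidigm C1, per the labels' protocols, made into full-length cDNA without molecular identifiers and sequenced on an Illumina HiSeq. The deposited raw table holds whole-number counts for 15124 genes in 294 cells. HISAT2 2.1.0, featureCounts, Seurat and mm10 are named in the submitters' processing notes, without their roles, and strandedness was not given in the sources used here. The second deposited table holds a depth-corrected score of 14051 genes, which the authors named SCT and which served only as an alternative.

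Counts were scaled to CPM and to RPKM (exon union, GENCODE M21). Spearman's correlations of log2(CPM + 1) were computed within name series and summarised by their median. Genes were called positive when rho was above 0 in every series with a value, over at least 6 series. No test between groups was run. The correlation step was checked on simulated data (Python 3.11.15, numpy 2.4.6, pandas 2.3.3, scipy 1.17.1, matplotlib 3.10.9). The genes and gene lists were chosen with earlier results of these data known. The genes named are the 10 genes, both markers, genes of the lists and the 3 nearest genes of each. Of the marker lists, 6 of 7 blood, 3 of 7 endothelial and 3 of 6 epicardial genes were not analysed here. Alternatives changed the table, the covariates, the correlation, the depth, the detection threshold and the series included.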

Additional observations from a re-analysis of the deposited data

How the results depend on the processing

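The number of the 8 genes positive in every series with Acta2 (2) became 1 in the depth-corrected table and with Pearson's r at either pseudocount (1 or 10), and 0 given total count, given genes detected and after thinning to 200000 reads (15 shallower cells left out). With Tagln (1) it became 2 in the depth-corrected table and after thinning, and leaving out 1 series gave 1 to 4, the 4 without series 5. Of the other YAP and TEAD targets (2 with Acta2), the count was 0 given total count or with 10 cells with a read required, 1 given genes detected, with either Pearson's r and after thinning, and 1 to 2 without 1 series. Of the Hippo genes (2 with Acta2), the count was 0 given total count, given genes detected and with 10 cells, 1 with either Pearson's r and after thinning, and 1 to 4 without 1 series. Pairs of a gene and a marker whose product lay outside the interval (0) became 1 at 100 CPM and 2 with all cells as 1 stratum. By median RPKM, 2 of 10 genes kept their place in the order. The counts of SRF and MRTF targets, of pairs among the 10 genes, of pairs above the product and of genes in at least 50% of cells stayed within 1.5 times under each alternative run. Of the median correlations under an alternative, 663 stayed within 1 SD over series of the reported value and 9 did not. Of the shares of cells detected, 92 stayed within the interval of the reported share and 28 did not, 24 of them at another detection threshold, 3 without series 1 (Mef2c, Ctgf and Cyr61) and 1 without series 2 (Thbs1). No paired analysis was possible because there was 1 group. Detection depends on the threshold: at 1 read or more, Srf was found in 39.1%, Mkl1 in 30.95% and Ankrd1 in 21.4% of cells. At the lowest depth, 34046 reads, 1 read is above 10 CPM.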
